A study of Mus musculus with 6 samples.

Results

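The PARP family and its partner Dtx3l were followed as 10 genes, picked by symbol from a table of 30587 rows: Parp1, Parp2, Parp3, Parp8, Parp9, Parp10, Parp11, Parp12, Parp14 and Dtx3l. Each symbol matched 1 row, and all 10 had enough reads to be among the 13249 rows tested. The genes were picked with the difference between KO and WT already known, so their levels and fold changes are given as a description, with no p-value. Of the 10, 6 form the antiviral set (Parp9, Parp10, Parp11, Parp12, Parp14 and Dtx3l), 3 the DNA-repair set (Parp1, Parp2 and Parp3), and Parp8 stands in neither.

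Dendritic cells were grown from bone marrow, and all mice were C57BL/6. The 3 KO libraries came from CD11c-Cre;Hif2afl/fl mice and the 3 WT libraries from Hif2afl/fl mice without the Cre. Both genotypes therefore carry the floxed alleles of Hif2a, the gene of the transcription factor HIF-2α, whose official symbol is Epas1. CD11c-Cre acts in cells that express the integrin CD11c, so cells that do not can keep the gene. Cells of both genotypes received dimethyloxalylglycine (DMOG), which stabilises HIF-2α, for 24 h and then the glycolipid α-galactosylceramide for 4 h, and no untreated library was analysed here. The purpose of the study was to learn how HIF-2α shapes glycolipid priming by dendritic cells. Whether each library stems from its own mouse or culture is not stated in the labels, so the p-values below speak only of the spread among these 6 libraries, part of which may be technical.

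PARP enzymes take ADP-ribose from NAD and attach it to proteins, either as a single unit (mono-ADP-ribosylation) or as long chains (poly-ADP-ribosylation). Parp1 and Parp2 make chains at broken DNA and call in repair factors, and Parp3, which adds single units, also acts at DNA breaks. Several of the mono-ADP-ribosylating members are induced by interferons, carry macrodomains, WWE domains or zinc fingers, and take part in the defence of cells against viruses. Parp9 works in a complex with Dtx3l, a ubiquitin ligase of the Deltex family.

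Total counts ran from 14668641 to 17884160 per library. Epas1 had 175, 214 and 198 reads in KO 1, 2 and 3, against 339, 352 and 349 in WT 1, 2 and 3, and fell by 0.98 ± 0.12 on the log2 scale (SE; edgeR quasi-likelihood test, adjusted p = 3.45e-05). The labels do not say which exons are floxed, and reads from the other exons count towards the gene too. WT 2 and KO 1 had a read in 25408 and 22275 rows, against 18763 to 19513 in the other libraries. Conventional dendritic cell markers ranged widely in level. Itgax, the gene of CD11c, had 2669 to 3563 reads in KO and 3173 to 3237 in WT. Some were low, with Clec9a at 54 to 63 reads in KO and 44 to 55 in WT. Xcr1 had 30 to 38 reads in KO and 7 to 19 in WT, and Cd209a at most 9 in any library. The summed level of this list ran from 3163 to 3549 CPM (counts scaled to the normalised library size) in KO. In WT it ran from 2755 to 2787 CPM, and 4 of the 8 tested rose in KO (Flt3, Zbtb46, Xcr1 and Ccr7). Ccr7, which marks mature dendritic cells, made up 55.7% to 65.3% of that sum in KO and 47.6% to 52.3% in WT, and without it the sums overlapped, at 1232 to 1402 CPM in KO and 1327 to 1459 CPM in WT. Macrophage markers summed to between 1997 and 2354 CPM in KO and between 1831 and 2016 CPM in WT, and Fcgr1 among them rose. Plasmacytoid markers summed to between 314 and 327 CPM in KO and between 128 and 160 CPM in WT, and both tested (Bst2 and Tcf4) rose. Bst2, which interferon also induces, gave at least 82.6% of the sum in each library, and without it the sum was 27.3 to 33.4 CPM in KO and 20.4 to 22.4 CPM in WT. Siglech had at most 2 reads in any library. Mast cell and basophil markers summed to between 74.2 and 79.2 CPM in KO and between 46.1 and 51.9 CPM in WT, with 2 of 3 tested higher (Mcpt8 and Kit). Kit had 1230 to 1408 reads in KO and 703 to 861 in WT, and no other gene of that list had more than 22 in any library. Of the neutrophil markers, 0 of 2 tested were called. Beside all these marker counts, 13.8% of all tested genes were called higher and 12% lower in KO. No gene on the T, B and natural killer cell lists had more than 12 reads in any library. In bulk libraries such as these, a different share of a cell type and a different amount of RNA per cell cannot be told apart, and the part of these marker differences in the results below was not tested.

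Promoter sequence was one property that played no role in picking the genes. RefSeq promoter windows of GRCm38.p6, which is mm10, each with 250 bases before a start site and 50 from it onwards, matched 7 of the 10 genes in 8 windows, all but Parp9, Parp10 and Parp14. On both strands they were searched for GAAA followed after any 2 bases by another GAAA, the core of the interferon-stimulated response element (ISRE) bound by a complex that holds STAT2 and IRF9, for TTCNNNGAA, the GAS element bound by dimers of STAT proteins, and for ACGTG, the core of the element bound by HIF. Parp11 was the only one of the 7 to hold the ISRE letters, and it held them in 1 of its 2 windows. The sequences below show that window beside the windows of Parp12 and Dtx3l, which were higher in KO and held no such match, of Parp1 as a repair gene, and of Parp4, a family member outside the 10 that held the letters. Each is written 5′ to 3′ on its gene's own strand, and capitals mark ISRE and GAS matches.
Parp11: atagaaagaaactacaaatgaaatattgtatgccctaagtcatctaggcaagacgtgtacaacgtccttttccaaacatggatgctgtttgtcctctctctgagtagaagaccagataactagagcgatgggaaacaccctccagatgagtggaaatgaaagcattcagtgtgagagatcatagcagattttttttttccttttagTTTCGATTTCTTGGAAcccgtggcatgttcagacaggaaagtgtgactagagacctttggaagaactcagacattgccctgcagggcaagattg
Parp12: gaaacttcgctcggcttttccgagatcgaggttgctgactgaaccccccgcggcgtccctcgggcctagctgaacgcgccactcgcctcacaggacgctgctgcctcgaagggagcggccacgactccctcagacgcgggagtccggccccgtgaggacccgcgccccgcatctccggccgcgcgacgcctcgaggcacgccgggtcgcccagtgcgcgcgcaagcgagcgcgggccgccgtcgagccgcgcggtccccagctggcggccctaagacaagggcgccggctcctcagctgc
Dtx3l: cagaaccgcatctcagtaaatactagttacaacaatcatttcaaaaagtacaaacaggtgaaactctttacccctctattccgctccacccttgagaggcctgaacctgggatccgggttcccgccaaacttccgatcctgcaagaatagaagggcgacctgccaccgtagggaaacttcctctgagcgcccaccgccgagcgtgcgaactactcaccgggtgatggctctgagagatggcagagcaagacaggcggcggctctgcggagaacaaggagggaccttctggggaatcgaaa
Parp1: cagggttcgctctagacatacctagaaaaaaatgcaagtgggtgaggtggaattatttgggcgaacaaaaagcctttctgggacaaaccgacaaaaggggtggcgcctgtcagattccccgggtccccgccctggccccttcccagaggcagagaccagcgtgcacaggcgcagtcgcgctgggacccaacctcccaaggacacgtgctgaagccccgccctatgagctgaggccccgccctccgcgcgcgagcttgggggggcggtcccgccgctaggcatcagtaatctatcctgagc
Parp4: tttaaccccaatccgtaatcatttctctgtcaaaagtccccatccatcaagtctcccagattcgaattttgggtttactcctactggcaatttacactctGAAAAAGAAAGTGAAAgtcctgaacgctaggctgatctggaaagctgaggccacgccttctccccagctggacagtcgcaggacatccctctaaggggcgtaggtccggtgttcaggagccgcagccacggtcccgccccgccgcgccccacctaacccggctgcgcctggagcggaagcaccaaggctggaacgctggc
The printed Parp11 window (chr6:127446590-127446889, plus strand) holds the ISRE letters on the reverse strand from position -44 and a GAS match from position -37 that overlaps them, both counted from the start site. The second Parp11 window, chr6:127453377-127453676 on the plus strand, holds 0 ISRE and 0 GAS matches. The Parp12 window is chr6:39118300-39118599 on the minus strand, the Dtx3l window chr16:35938978-35939277 on the minus strand, and the Parp1 window chr1:180568641-180568940 on the plus strand. The Parp4 window (chr14:56575369-56575668, plus strand) holds 2 overlapping ISRE matches, from positions -150 and -144. Over all 32851 promoter windows, 3.44% held the ISRE letters, 8.3% the GAS letters and 19.6% the HIF core. The HIF core was in 3 of the 7 genes, Parp1, Parp2 and Parp11. A match describes the letters alone, and a window without one says nothing about the factor.

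All 6 genes of the antiviral set were higher in KO, with no overlap between libraries of the 2 genotypes, by between 1.79-fold and 3.5-fold, whereas KO and WT overlapped in all 3 genes of the repair set. Among all tested genes, 25.8% were called changed at an edgeR adjusted p under 0.05, with 13.8% higher and 12% lower in KO. By the same call, 7 of the 10 genes were higher and 0 lower. The KO libraries were all above the WT libraries in 20.5% of tested genes and in 7 of these 10, and all below them in 20% of tested genes and in 0 of these 10. Because the 10 were picked on this contrast, nothing is read from those counts.

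**Figure D1:**
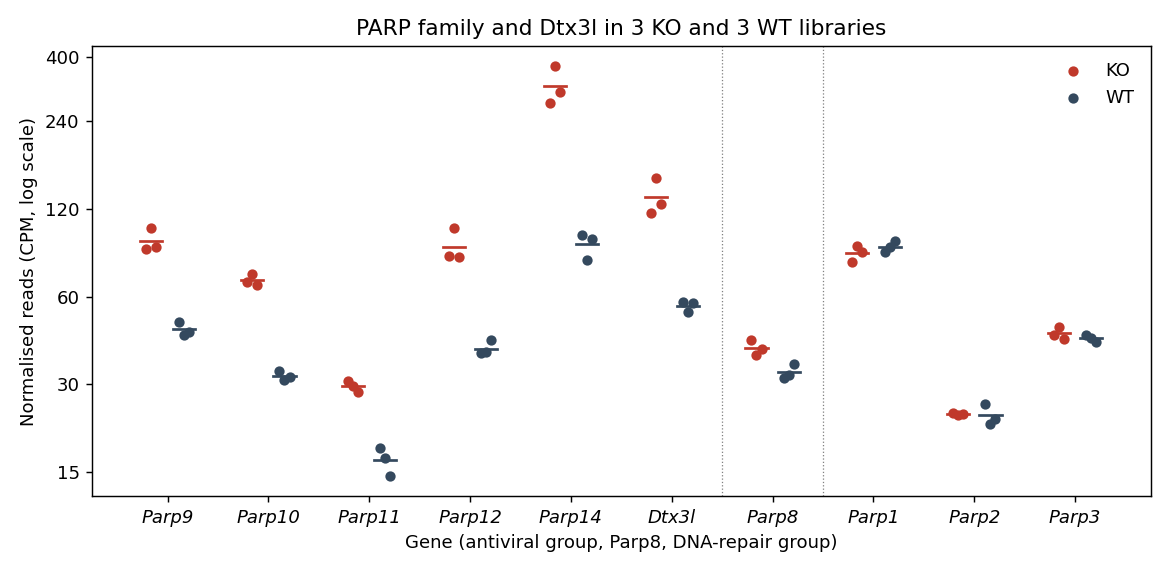
Normalised reads (CPM, log axis) of the 10 genes, with 1 point per library, KO at the left of each pair and WT at the right, and a line at the mean of 3 libraries. The KO points of the 6 antiviral genes and Parp8 sit above all WT points, and those of Parp1, Parp2 and Parp3 overlap with them.

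Parp14 (chromosome 16, 35832874 to 35871544, minus strand, mm10) encodes a large mono-ADP-ribosyltransferase with macrodomains that is known as a cofactor of STAT6 in the response to interleukin-4. It had 5059, 6264 and 5243 reads in KO 1, 2 and 3, against 1649, 1241 and 1383 in WT 1, 2 and 3. The lowest KO library was far above the highest WT library, at 277 CPM against 97.5 CPM. Its level averaged 317 ± 48.3 CPM in KO and 90.7 ± 9.13 CPM in WT (SD, n = 3 each), a log2 fold change of 1.81 ± 0.10 (SE), or 3.5-fold, the highest of the 10 and rank 104 among all tested genes. KO 2 was the highest library, and without it the log2 fold change was 1.68.

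Dtx3l (chromosome 16, 35926511 to 35939151, minus strand) had 2122, 2599 and 2153 reads in KO 1, 2 and 3, against 971, 819 and 837 in WT 1, 2 and 3. KO 2 again stood highest, and the groups did not overlap. The levels were 132 ± 19.7 CPM in KO and 55.9 ± 2.45 CPM in WT (SD), a log2 fold change of 1.24 ± 0.09 (SE), or 2.36-fold.

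Parp9 (chromosome 16, 35938470 to 35972605, plus strand), the macrodomain protein that pairs with Dtx3l, had 1591, 1740 and 1530 reads in KO, against 832, 686 and 664 in WT. Every KO library was above every WT library, with KO 2 the highest and WT 1 the highest of its genotype. Its level was 93 ± 8.74 CPM in KO and 46.3 ± 2.55 CPM in WT (SD), a log2 fold change of 1.01 ± 0.07 (SE), or 2.01-fold.

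These 3 genes lie next to each other on chromosome 16. Dtx3l and Parp9 are transcribed away from each other and the stretches next to their start sites overlap, with these sites 681 bases apart and 458 bases of shared exon on opposite strands, which is 9.4% of the exon length of Parp9 and 8% of that of Dtx3l. The strand setting of the counting is not given in the sources used here, so reads in that stretch may not have been told apart. Parp14 starts 66926 bases from Parp9. The 3 did not move by the same factor. Parp14 had 2.38, 2.41 and 2.44 times the reads of Dtx3l in KO 1, 2 and 3, against 1.7, 1.51 and 1.65 times in WT 1, 2 and 3. The ratio thus varied little within KO, at 2.41 ± 0.0256 against 1.62 ± 0.0952 in WT (SD, n = 3 each), and the groups did not overlap. Parp9 had 0.75, 0.669 and 0.711 times the reads of Dtx3l in KO 1, 2 and 3, against 0.857, 0.838 and 0.793 times in WT 1, 2 and 3, so this ratio was lower in KO, again without overlap. Parp14 relative to Parp9 was 3.4 ± 0.211 in KO and 1.96 ± 0.139 in WT (SD).

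**Figure D2:**
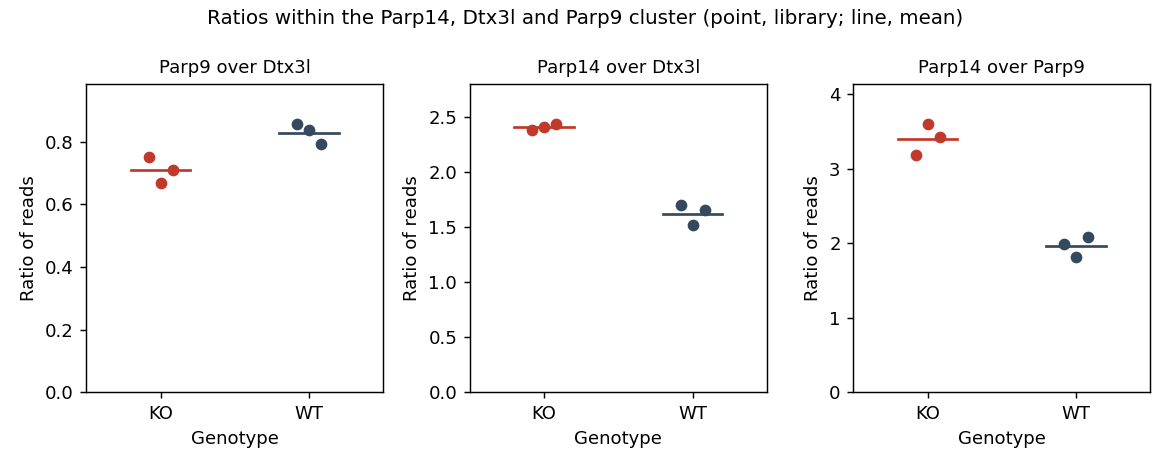
Ratios of read counts between the 3 neighbouring genes of chromosome 16, with 1 point per library, KO at the left and WT at the right, and a line at the mean. Parp14 relative to Dtx3l averaged 2.41 in KO and 1.62 in WT, and Parp9 relative to Dtx3l averaged 0.71 in KO and 0.829 in WT.

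The 5 other tested protein-coding genes within 200 kb of Parp9, taken by position, had no rise in KO, and 3 of them fell. Over all tested genes, 13.8% were called higher and 12% lower. Fam162a, a gene known to be induced by hypoxia, starts 133124 bases from Parp9 and had 1161, 901 and 931 reads in KO against 2456, 2220 and 1799 in WT, and it fell by 1.27 ± 0.08 on the log2 scale (SE; edgeR adjusted p = 9.76e-08). Wdr5b and Ccdc58 fell by 0.50 ± 0.15 and 0.45 ± 0.12 (edgeR adjusted p = 0.0242 and 0.0174), and they lost the call in 8 and 4 of 15 alternative fits, among them those without WT 1, WT 2, KO 2 or KO 3. Kpna1, which encodes an importin that carries proteins into the nucleus and lies 6145 bases beyond the end of Parp9, had 1233, 1147 and 1122 reads in KO against 1121, 898 and 992 in WT, with a log2 fold change of 0.06 ± 0.07 (edgeR adjusted p = 0.541). Hspbap1, on the far side of Parp14, had a log2 fold change of -0.22 ± 0.14 (edgeR adjusted p = 0.288).

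Parp12 (chromosome 6, 39086410 to 39118349, minus strand) encodes a mono-ADP-ribosyltransferase with zinc fingers that restricts RNA viruses. It had 1508, 1737 and 1410 reads in KO, against 647, 596 and 622 in WT. The lowest KO library, at 81.8 CPM, was well above the highest WT library, at 42.4 CPM. Its level was 89.1 ± 11.9 CPM in KO and 39.8 ± 2.31 CPM in WT (SD), a log2 fold change of 1.17 ± 0.09 (SE), or 2.24-fold.

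Parp10 (chromosome 15, 76231174 to 76243441, minus strand), a mono-ADP-ribosyltransferase with RNA-recognition and ubiquitin-interacting motifs, had 1227, 1212 and 1138 reads in KO, against 563, 477 and 467 in WT. Its KO libraries were close to each other, with a coefficient of variation of 4.45%, against 15.2% for Parp14, and none overlapped WT. The level was 68.3 ± 3.04 CPM in KO and 32 ± 1.22 CPM in WT (SD), a log2 fold change of 1.09 ± 0.07 (SE), or 2.13-fold. It shares 205 bases of exon on the same strand with Plec, 4.8% of its exon length.

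Parp11 (chromosome 6, 127446840 to 127494261, plus strand), with 1 of its 2 promoter windows printed above, encodes a WWE-domain mono-ADP-ribosyltransferase of the nuclear envelope. It had 560, 499 and 486 reads in KO, against 305, 258 and 213 in WT, with no overlap. The level was 29.5 ± 1.26 CPM in KO and 16.4 ± 1.77 CPM in WT (SD), a log2 fold change of 0.84 ± 0.10 (SE), or 1.79-fold. Parp11, with an ISRE match in 1 of its 2 windows, had the lowest fold change of the antiviral set. Parp9, Parp10 and Parp14 had no window to search, so nothing about the ISRE is read from this order. Parp11 was the member of the set in which KO 1, not KO 2, was highest. KO 2 was the highest KO library in the other 5 genes, and WT 1 the highest WT library in 5 of 6.

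Parp8 (chromosome 13, 116854820 to 117025537, minus strand), a mono-ADP-ribosyltransferase of little known function, differed much less than the antiviral set. It had 777, 637 and 684 reads in KO, against 533, 497 and 517 in WT. Its groups did not overlap, but the nearest libraries were close, at 37.7 CPM in KO 2 and 35.3 CPM in WT 3. The log2 fold change was 0.28 ± 0.08 (SE), or 1.21-fold, and Parp8 was not among the called genes without WT 1, without WT 2, without KO 3, or without both WT 2 and KO 1.

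Parp1 (chromosome 1, 180568924 to 180601254, plus strand), the main maker of poly-ADP-ribose, had 1437, 1512 and 1473 reads in KO, against 1439, 1367 and 1371 in WT. Its level was 84.6 ± 5.44 CPM in KO and 89 ± 4.22 CPM in WT (SD), and the groups overlapped. The log2 fold change was -0.07 ± 0.06 (SE). Parp2 (chromosome 14, 50807841 to 50821301, plus strand), the close relative that shares this task, had 436, 396 and 408 reads in KO, against 432, 339 and 335 in WT. The KO libraries lay within the range of the WT libraries, at 23.5 to 23.9 CPM against 22 to 25.6 CPM, with a log2 fold change of 0.01 ± 0.09 (SE). Parp3 (chromosome 9, 106470322 to 106476949, minus strand) had 810, 799 and 737 reads in KO, against 748, 670 and 615 in WT. The groups overlapped at 44.8 ± 2.32 CPM in KO and 43.2 ± 1.16 CPM in WT (SD), with a log2 fold change of 0.05 ± 0.07 (SE). Differences as small as these SEs were not detectable with 3 libraries per genotype.

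Set against each other, the mean log2 fold change was 1.19 in the antiviral set and -0.0029 in the repair set, a difference of 1.19 on the log2 scale, or 2.29-fold. The mean log2 CPM of the antiviral set exceeded that of the repair set by 1.01, 1.17 and 1.01 in KO 1, 2 and 3, whereas the same difference was -0.091, -0.15 and -0.12 in WT 1, 2 and 3. Libraries of 1 genotype varied in this quantity with an SD of 0.066.

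**Figure D3:**
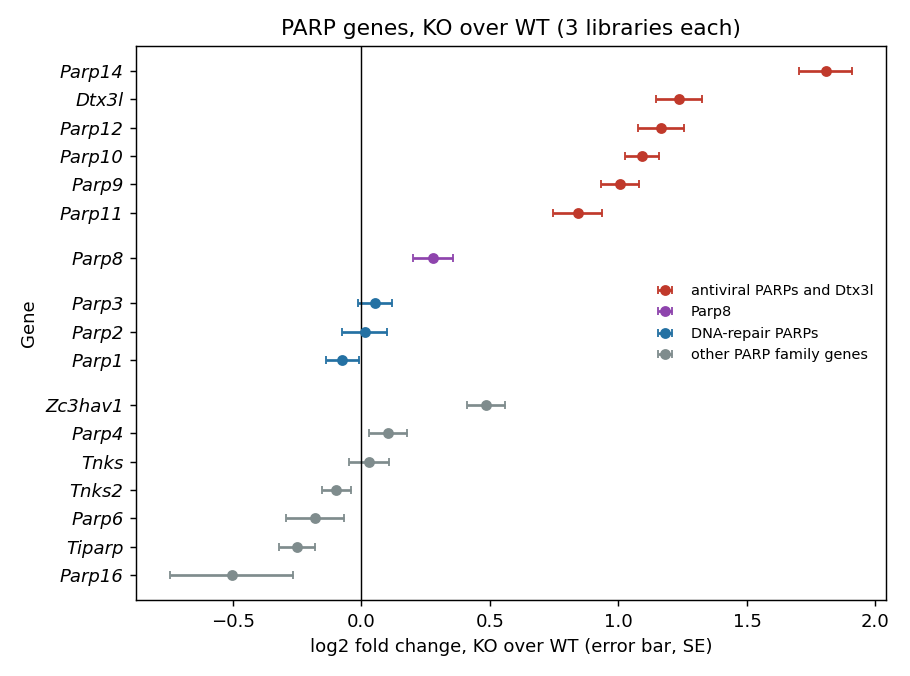
Log2 fold change of each PARP gene, KO over WT, with its SE and 3 libraries per genotype; the 10 genes are at the top by set and the rest of the family below. The antiviral set lies between 0.84 and 1.81 and the repair set between -0.07 and 0.05.

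Levels of different genes were compared only per kilobase of annotated exon (CPM per kb). In KO the order from the top was Parp14, Dtx3l, Parp12, Parp9, Parp10, Parp1, Parp3, Parp2, Parp8 and Parp11. Parp14 was alone at the top with 34.1 ± 5.18 CPM per kb (SD, n = 3). The libraries of Dtx3l, Parp12 and Parp9 overlapped from each gene to the next, at 23, 22.3 and 19.1 CPM per kb, as did those of Parp10 and Parp1, at 16 CPM per kb for both, and those of Parp8 and Parp11. In WT, Parp1 was at the top with 16.8 ± 0.797 CPM per kb, followed by Parp3 at 11.7 ± 0.314 CPM per kb. Then came Parp12, Dtx3l, Parp14 and Parp9, which overlapped from each to the next, between 9.5 and 9.95 CPM per kb. So the 6 antiviral genes had lower means than Parp1 and Parp3 in WT. In KO, Parp14, Dtx3l, Parp12 and Parp9 lay above Parp1 in all libraries, and Parp10 did not differ from Parp1 beyond their spread. Parp11 was the lowest of the 10 in both genotypes, at 4.2 ± 0.179 CPM per kb in KO and 2.34 ± 0.252 CPM per kb in WT.

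**Figure D4:**
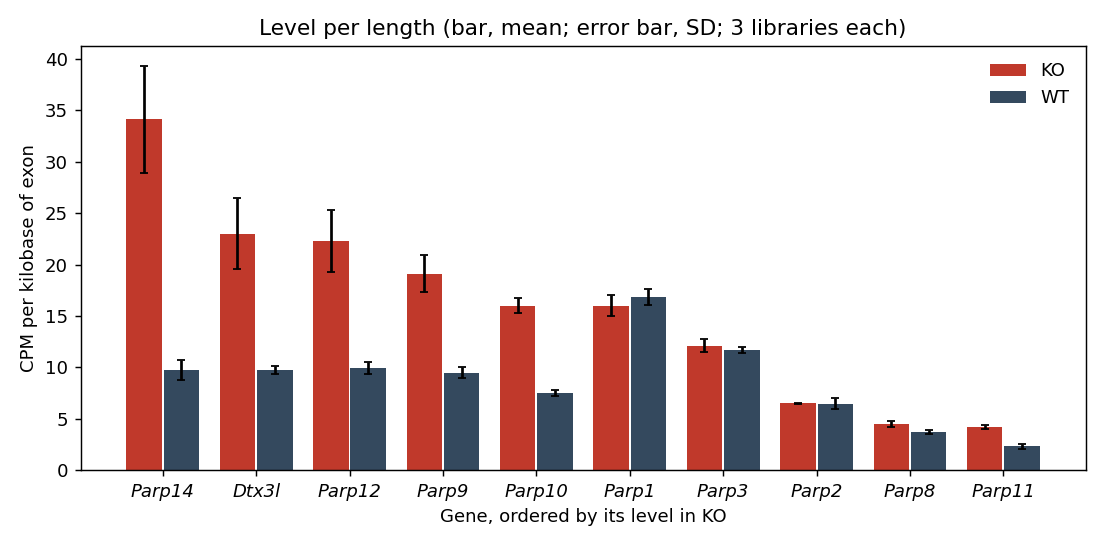
Level per kilobase of exon of the 10 genes, in the order of their KO level, with KO at the left and WT at the right of each pair, bars at the mean and error bars of 1 SD (n = 3). Parp14 stands highest in KO at 34.1 CPM per kb, and Parp1 highest in WT at 16.8 CPM per kb.

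Over the 6 libraries, the 5 genes whose centred log2 CPM lay nearest to that of Parp14 were Helz2, Ifi203, Ddx60, Kif14 and Sp100, at Euclidean distances of 0.195 to 0.235 on the log2 scale. Helz2 and Ddx60 encode helicases, Ifi203 an interferon-inducible protein of the p200 family, Sp100 a nuclear body protein and Kif14 a mitotic kinesin. Ifi203 and Sp100 have similar copies elsewhere in the genome, which makes their single values uncertain. Measured in the same way, Dtx3l ranked 34 of 13248 genes by its distance to Parp9, at 0.309. Lgals9, which encodes galectin-9, was nearest at 0.109. These distances include the difference between KO and WT, with which the genes were picked. The 5 genes nearest to Parp14 had log2 fold changes of 1.68 to 2.01, against 1.81 for Parp14. Nothing beyond that difference is read from the distances.

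The 7 PARP family genes outside the 10 were also tested, and 1 rose and 1 fell, with a median log2 fold change of -0.10 against -0.0093 over all tested genes. They are what the choice of the 10 left over, so their share is no independent result. Over all tested genes, 13.8% were called higher and 12% lower. Zc3hav1, which encodes the zinc-finger antiviral protein ZAP, also called PARP13, had 4940, 5323 and 5146 reads in KO, against 3550, 3051 and 3301 in WT. Its groups did not overlap, and it rose by 0.48 ± 0.07 on the log2 scale, or 1.4-fold (edgeR adjusted p = 0.000354). Tiparp, also called PARP7, is induced by the aryl hydrocarbon receptor and had 1015, 849 and 977 reads in KO, against 1004, 1024 and 997 in WT. It fell by 0.25 ± 0.07 on the log2 scale (edgeR adjusted p = 0.0196), and did not pass without WT 2, WT 3 or KO 2, or without both WT 2 and KO 1, at log2 fold changes from -0.25 to -0.20. The tankyrase genes Tnks and Tnks2 had log2 fold changes of 0.03 ± 0.08 and -0.10 ± 0.06 (edgeR adjusted p = 0.824 and 0.238). Parp4, the vault PARP whose promoter held 2 ISRE matches, had 0.10 ± 0.07 (edgeR adjusted p = 0.333), with 1027, 1033 and 942 reads in KO and 835, 814 and 853 in WT. Parp6 had -0.18 ± 0.11 and Parp16, with 51 to 67 reads in KO and 52 to 104 in WT, had -0.50 ± 0.24 (edgeR adjusted p = 0.272 and 0.142).

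Among 7 tested genes that remove ADP-ribose, 1 rose and 2 fell, with a median log2 fold change of -0.03. The shares over all tested genes were 13.8% higher and 12% lower. Macrod1, a mitochondrial hydrolase of mono-ADP-ribose, had 109, 106 and 102 reads in KO, against 179, 173 and 203 in WT. It fell by 0.97 ± 0.14 on the log2 scale, or 1.96-fold, with no overlap (edgeR adjusted p = 0.000161). Nudt16, a hydrolase that can cut ADP-ribose on proteins, fell by 0.35 ± 0.09 (edgeR adjusted p = 0.0136), and lost the call without WT 1, WT 3 or KO 3. Adprh, which frees ADP-ribosylated arginine, rose by 0.24 ± 0.06 (edgeR adjusted p = 0.00869), and lost the call without WT 2 and KO 1 together. Parg, the chain-degrading enzyme that works against Parp1, had 33.2 ± 1.5 CPM in KO and 32.3 ± 2.72 CPM in WT (SD; edgeR adjusted p = 0.781; named after its values were seen).

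Of 8 tested genes whose enzymes make NAD, the substrate of PARPs, or turn it into NADP, as those of Nadk and Nadk2 do, 2 fell and 0 rose, with a median log2 fold change of -0.03. Beside this count and that of the other NAD users below, 13.8% of all tested genes were called higher and 12% lower. Nampt, the rate-limiting enzyme of the salvage route, had 5118, 4573 and 4647 reads in KO, against 7633, 6860 and 6036 in WT. Its level was 274 ± 6.04 CPM in KO and 436 ± 21.2 CPM in WT (SD), and it fell by 0.67 ± 0.06 on the log2 scale, or 1.59-fold, with no overlap (edgeR adjusted p = 4.83e-06). Nmrk1, a nicotinamide riboside kinase, fell by 0.49 ± 0.12 (edgeR adjusted p = 0.0101). Of 9 tested genes for other enzymes that use NAD, 2 rose and 0 fell, with a median of -0.0084. Cd38, encoding the cell-surface NAD hydrolase, was low, with 89, 47 and 61 reads in KO against 31, 38 and 28 in WT, and rose by 0.86 ± 0.24 (edgeR adjusted p = 0.0201). It did not pass without WT 1, WT 3, KO 1 or KO 3, or without both WT 2 and KO 1. The deacylase gene Sirt6 rose by 0.24 ± 0.08 (edgeR adjusted p = 0.0459), a call lost in 10 of 15 alternative fits, among them each one with libraries left out.

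**Figure D5:**
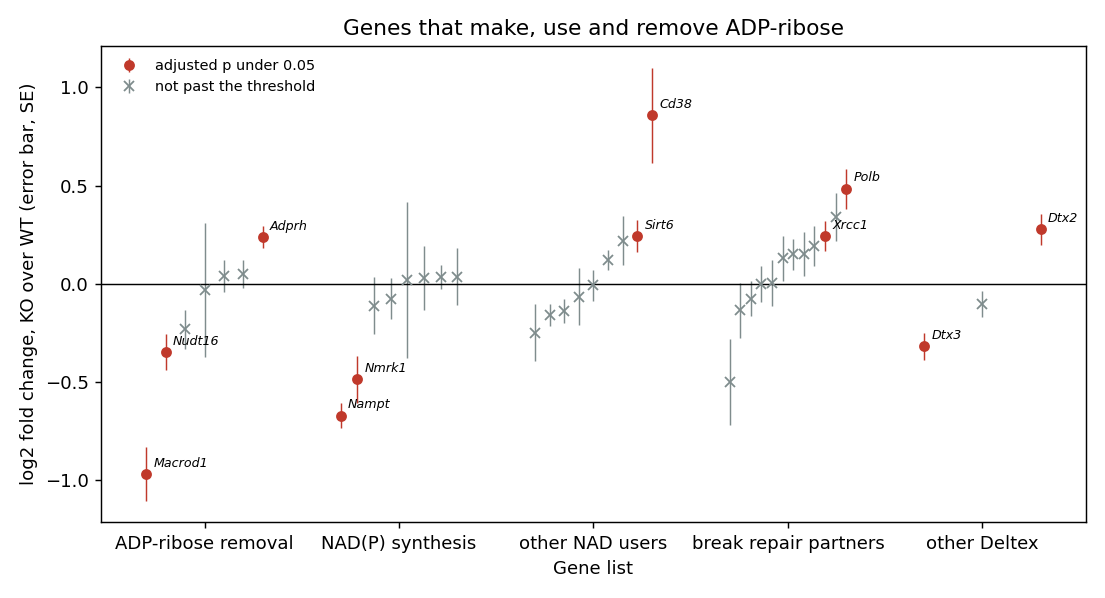
Log2 fold change, KO over WT, with SE, for tested genes of 5 lists that make NAD or NADP, use NAD, remove ADP-ribose or work with the 10 genes; named circles passed an edgeR adjusted p under 0.05 and crosses did not. Macrod1 at -0.97 and Nampt at -0.67 lie lowest among those that passed.

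Among partners of Parp1 and Parp2 in the repair of damaged bases and nicks, 2 of 12 tested rose and 0 fell, with a median log2 fold change of 0.14. Over all tested genes 13.8% were called higher and 12% lower, and nothing is read from the 2 of 12. The DNA polymerase gene Polb had 549, 400 and 485 reads in KO, against 334, 318 and 267 in WT, and rose by 0.48 ± 0.10 on the log2 scale (edgeR adjusted p = 0.0035). The scaffold gene Xrcc1 rose by 0.24 ± 0.08 (edgeR adjusted p = 0.0321), a call lost in 6 of 15 alternative fits, those without WT 1, 2 or 3, KO 2 or KO 3 and the DESeq2 Wald test. Hpf1, which lets Parp1 and Parp2 modify serine, had 22 ± 1.22 CPM in KO and 22 ± 1.79 CPM in WT (SD; edgeR adjusted p = 0.994; named after its values were seen). Of the 15 cell cycle genes, 8 rose and 1 fell. Top2a and Rrm2, for a topoisomerase and ribonucleotide reductase, rose by 1.03 ± 0.10 and 1.01 ± 0.16, and Mcm5, of the replicative helicase, by 0.51 ± 0.10 (edgeR adjusted p = 8.57e-06, 0.00042 and 0.00147). Pcna, the replication clamp, fell by 0.40 ± 0.07 (edgeR adjusted p = 0.000761). The summed level of the list was 578 to 626 CPM in KO and 623 to 659 CPM in WT. Pcna gave at least 50.6% of that sum in each library, and without it the sum was higher in KO, at 285 to 302 CPM against 233 to 244 CPM in WT. Proliferation markers thus differed between genotypes beside the repair PARPs, and their part in the level of those genes was not tested.

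The other Deltex genes did not share the size of the Dtx3l difference. Of 3 tested, Dtx2 rose by 0.28 ± 0.08 and Dtx3 fell by 0.32 ± 0.07 (edgeR adjusted p = 0.0213 and 0.00351). Beside these calls, 13.8% of all tested genes were called higher and 12% lower in KO. Dtx2 lost the call without WT 1, WT 2, KO 2 or KO 3, and without both WT 2 and KO 1. Dtx4, named after its values were seen, had 2974, 3101 and 3138 reads in KO, against 3139, 2827 and 2919 in WT (log2 fold change -0.10 ± 0.07, edgeR adjusted p = 0.29).

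Of 8 genes for factors that bind ISRE or GAS elements, 7 rose and 0 fell, with a median log2 fold change of 0.80. The shares over all tested genes were 13.8% higher and 12% lower. Stat2 and Irf9, whose proteins act together at the ISRE, rose by 2.05 ± 0.10 and 1.22 ± 0.07 (edgeR adjusted p = 8.91e-09 and 5.17e-08), and Irf7 by 4.28 ± 0.15 (edgeR adjusted p = 3.63e-10). The log2 fold change of Irf9 was thus within the range of those of the antiviral set, and those of Stat2 and Irf7 above it. Irf3, named after its values were seen, was the 1 that did not pass (log2 fold change -0.02 ± 0.08, edgeR adjusted p = 0.872).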

How the data were processed

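RNA was sequenced in 6 libraries of bone-marrow-derived dendritic cells, 3 KO and 3 WT, grouped by their titles. The authors deposited 1 table of raw counts per gene symbol. The submitters' processing notes name HTSeq, SAMtools, TopHat2, HISAT, HISAT2 and DESeq2 and the build mm10, without their roles. Strand setting and annotation: not given in the sources used here. Per the labels' protocols, Trizol was used to extract the RNA.

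Of 47 rows with a repeated symbol, the row with most reads kept it. The filter filterByExpr (minimum count 10) kept 13249 of 30587 rows. Genotype was the single term of an edgeR 4.0.16 quasi-likelihood model (R 4.3.3) with TMM normalisation, fitted over all tested rows, with Benjamini-Hochberg adjustment and calls at 0.05. The SE is the log2 fold change divided by the square root of F. CPM use the TMM-adjusted library size; per-kb levels use the merged exons of GENCODE M21 (mm10). The common biological coefficient of variation was 8.48%. Groups of 3 cannot give a permutation p under 0.1, so p-values rest on the model. Counts of no pair of replicates agreed within sampling noise (chi-square per degree of freedom at least 4.1).

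The 10 genes, the lists and the rule for named genes were chosen with earlier results of these data known. The rule named the 10 genes and Epas1, all other tested PARP genes, up to 4 called genes of each further list by lowest p, and the 5 nearest genes to Parp14; cluster neighbours and genes said to be named after their values were seen were added later. Alternatives used DESeq2 1.42.0 size factors or its Wald test, library size only, other count filters, limma-voom (limma 3.58.1), robust dispersion, the replicate number as a block, and libraries left out. Marker sums without their largest or chosen gene were added after seeing the data. A planned comparison of protein sequences was not made. Some genes that the rule or lists held are not reported here. The procedure was tested on simulated data.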

Additional observations from a re-analysis of the deposited data

How the results depend on the processing

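The difference in mean log2 fold change between the antiviral and repair sets was 1.14 to 1.22 with libraries left out in turn. Genes called over the whole table numbered 3412, against 2127 to 3614 with libraries left out in turn, lowest without KO 3, and 484 with a 2-fold minimum. Called genes of the rest of the PARP family numbered 1 to 2 with libraries left out in turn and 1 without WT 2 and KO 1. For other NAD users, where the count was 2, it was 0 to 1 with libraries left out in turn (the 1 without KO 1 was lower, so neither Cd38 nor Sirt6 passed there), 0 without WT 2 and KO 1, and 1 in each of 3 other fits, namely the DESeq2 Wald test, the replicate block and the fit of all rows without a low-count filter. It was 3, with 1 lower, with robust dispersion and with the stricter count filter. Break repair partners numbered 1 to 2 with libraries left out and 1 with the DESeq2 Wald test, and other Deltex genes 1 to 2 with libraries left out and 1 without WT 2 and KO 1. The log2 fold change of Tnks ran from -0.015 to 0.14 with libraries left out, being -0.015 without WT 1, -0.014 without WT 2 and -0.012 without KO 2. That of Kpna1 ran from -0.00098, without WT 2, to 0.11, and was -0.0092 without WT 2 and KO 1. Letting 1 letter of the ISRE core differ put it in 5 of the 7 promoters, in place of 1, and in 35.4% of all windows. The causes of these changes were not tested.

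Same-numbered KO and WT libraries did not deviate together (correlations of 0.015, -0.11 and 0.08 for numbers 1, 2 and 3), so the numbers were not taken as pairs. With the replicate block 3247 genes were called, and 7 of the 10 genes, and Sirt6 lost its call. Low counts, 28 to 89 reads for Cd38 and 51 to 104 for Parp16, limit what could be detected for these genes.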
